A study of Mus musculus with 12 samples.

Results

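The genes examined were those encoding the nuclear subunits of the oxidative phosphorylation complexes, chosen by the starts of their gene symbols, with assembly factors left out. The symbols were those beginning Ndufa with a digit, Ndufab, Ndufb, Ndufc, Ndufs, Ndufv, Sdh, Uqcr, Cox4i, Cox5, Cox6, Cox7, Cox8 and Atp5, together with Cyc1. This gave 80 genes of the 12393 on the arrays that had a probe set naming them alone. Of these, 34 belonged to complex I, 4 to complex II, 9 to complex III, 16 to complex IV and 17 to ATP synthase, also called complex V. Where a gene had several probe sets, the one of highest average signal stood for it, and 77 of the 80 had enough signal to be tested. No symbol of a mitochondrially encoded subunit was present, so the values describe the nuclear genes only.

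Striatal RNA was measured on Affymetrix arrays in 12 C57Bl/6 mice, 1 array for each mouse. The 4 groups were TIF-IAD1RCre mutants aged 9 weeks, controls aged 9 weeks, mutants aged 13 weeks and controls aged 13 weeks, with 3 mice in each. In the mutants the transcription factor TIF-IA, which RNA polymerase I needs to start ribosomal RNA synthesis and which Rrn3 encodes, was targeted with Cre driven by the D1 dopamine receptor promoter, which acts in a subset of striatal neurons. The series text states that the profiling addressed survival and death, and it gives 5 chips for each condition in one place and 3 mice in another. The labels name medium spiny neurons, the main projection neurons of the striatum, as the cell type. They do not say whether the controls carried a floxed allele or Cre.

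Oxidative phosphorylation makes most of a neuron's ATP. Complexes I and II pass electrons to ubiquinone, complex III passes them to cytochrome c, and complex IV passes them to oxygen. Complexes I, III and IV pump protons across the inner mitochondrial membrane, and ATP synthase uses the returning protons to make ATP. Most subunits come from nuclear genes that are active in nearly every cell type, whereas complex IV also has isoforms tied to heart and skeletal muscle, lung or testis. Striatal medium spiny neurons are known for their sensitivity to inhibitors of complex II.

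Values are log2 probe set signals as the authors deposited them after GCRMA, a method that corrects background and normalizes Affymetrix arrays. Differences are mutant minus control on the log2 scale with the standard error (SE) from limma, and a gene was called at a Benjamini-Hochberg adjusted p under 0.05 over 8256 genes. Signals of different probe sets cannot be set against each other, so levels are compared only within a gene. In bulk tissue, fewer cells of a type and less RNA per cell cannot be told apart. With 3 mice per group, the number of arrays limits the precision.

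The probe set of Rrn3 read 6.90, 6.96 and 6.91 in mutants at 9 weeks, against 8.00, 7.97 and 8.20 in controls. At 13 weeks it read 7.72, 7.58 and 7.18 in mutants, against 7.96, 7.54 and 8.04 in controls. Every mutant was under every control at 9 weeks, and the groups overlapped at 13 weeks; the labels do not say whether this probe set lies in the deleted stretch. The tissue held more than neurons, since the mean over 12 microglia markers was 8.53 to 8.66 and the mean over 10 astrocyte markers 9.45 to 9.66 in controls at 9 weeks. Sex is not given in the labels. Read from Xist and Eif2s3y, all 3 mutants at 13 weeks were female, against 1 of 3 controls, while each group at 9 weeks held 1 female. Control replicate 3 at 13 weeks stood apart, with 20 of 77 subunit genes over 0.5 log2 from the mean of the other two controls, 16 of them lower. Mutant replicate 3 at 9 weeks had 9 such genes, all higher, and its mean over 6 thalamic and excitatory neuron markers was 1.63 above that of the controls. For the same markers, control replicate 1 at 13 weeks stood 0.77 above the mean of its group.

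At 9 weeks the subunit genes differed little between the genotypes. Only Ndufb10, a subunit of the membrane arm of complex I, was called, 1 higher and 0 lower of 77, or 1.3%, against 5.00% of all genes tested in limma (2.02% higher and 2.98% lower). At an unadjusted p under 0.05 there were 13 of the 77 subunit genes and 1767 of all 8256 genes tested. The median difference was -0.01, against -0.02 for all genes tested, and 73 of 77 genes (94.8%) lay within 0.5 log2 of no difference, against 78.5% of all genes. The median SE was 0.166 for the subunit genes and 0.219 for all genes. Mutants lay wholly above controls for 12 genes and wholly below for 13, where 15.0% of all genes lay above and 20.6% below.

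By complex, the medians at 9 weeks were 0.06 for complex I, -0.04 for complex II, -0.11 for complex III, -0.15 for complex IV and -0.14 for ATP synthase. In complex I, 9 of 34 genes had all mutants above all controls, among them Ndufa2, Ndufa5, Ndufa13, Ndufb1 and Ndufc1, whose differences ran from 0.40 to 0.58 with adjusted p from 0.10 to 0.26 in limma. None of those 5 passed the test. In ATP synthase, 4 of 17 genes had all mutants below all controls. Over all genes tested, 15.0% lay wholly above and 20.6% wholly below at this age.

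Ndufb10 read 13.00, 13.02 and 12.98 in mutants at 9 weeks, against 12.41, 12.42 and 12.51 in controls. The mutants lay close together and above every control, by 0.55 ± 0.13 log2 or 1.47-fold (limma, adjusted p = 0.0337, n = 3 each). At 13 weeks it read 12.23, 12.37 and 12.26 in mutants, against 12.51, 12.76 and 12.53 in controls. There the order was turned, with every mutant below every control, by -0.31 ± 0.13 log2, which did not pass (limma, adjusted p = 0.0636). The call at 9 weeks was lost when any 1 array of that age, or mutant replicate 1 or 2 at 13 weeks, was left out (largest adjusted p = 0.123 in limma). Without control replicate 3 at 13 weeks, which enters the shared estimate of spread, 5 subunit genes (6.49%) were higher at 9 weeks, where 16.6% of all genes were then called.

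**Figure D1:**
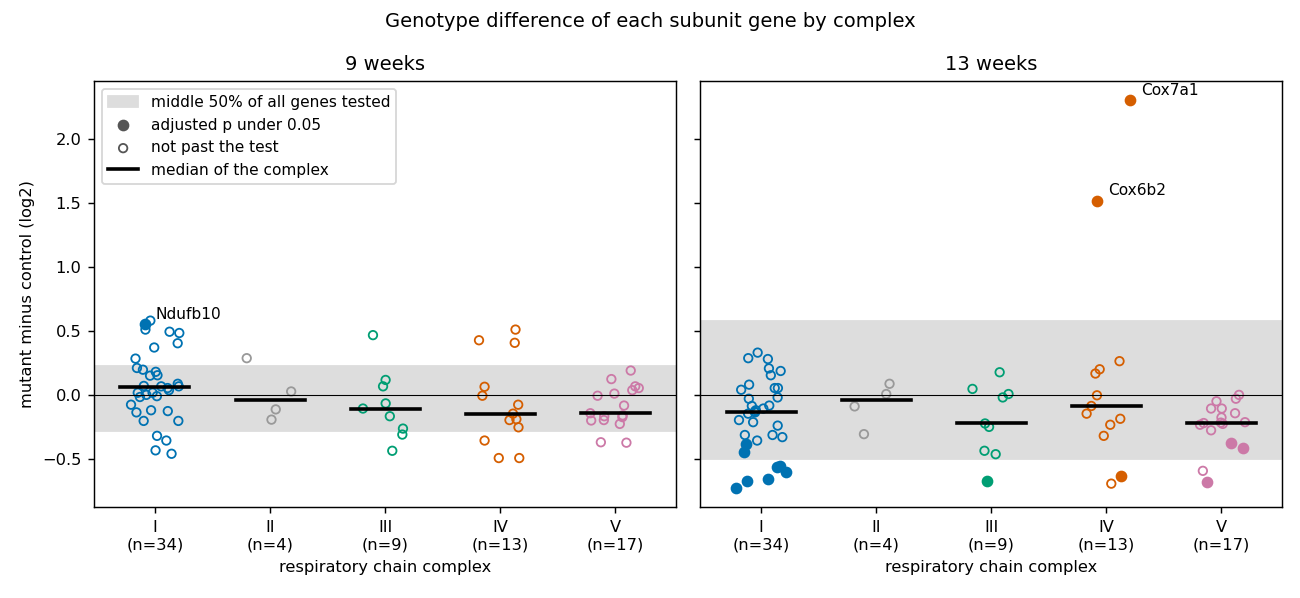
Difference of each subunit gene, mutant minus control on the log2 scale, by complex at 9 weeks (left) and 13 weeks (right). Filled circles passed the test, bars are medians of the complexes and the grey band holds the middle of all genes tested; most subunit genes lie inside the band at 13 weeks, and Cox7a1 and Cox6b2 lie above it.

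At 13 weeks a pair of tissue-restricted complex IV isoforms, Cox7a1 and Cox6b2, rose in mutants, and 13 subunit genes fell by 0.37 to 0.73 log2: Ndufs1, Ndufs3, Ndufs4, Ndufs8, Ndufv1, Ndufa4, Ndufa8 and Ndufb2 of complex I, Uqcr11 of complex III, Cox7a2l of complex IV, and Atp5a1, Atp5b and Atp5g1 of ATP synthase. The 15 called genes were 19.5% of 77, against 45.3% of all genes tested, with 23.4% of all genes higher and 21.9% lower in mutants. The genes that fell were 16.9% of the 77, under the share of all genes that fell. Averaged over the 77 genes, the level was 11.59, 11.63 and 11.74 in mutants, against 11.71, 11.93 and 11.71 in controls, so the groups overlapped. The median difference was -0.15, against 0.00 for all genes. It was negative for 56 genes, positive for 20 and zero for 1. The differences were small beside those of other genes, since 64 of 77 (83.1%) lay within 0.5 log2, against 47.6% of all genes. The median size of a difference was 0.213 log2 for the subunit genes and 0.53 for all genes.

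Mutants lay wholly below controls for 21 subunit genes and wholly above for 3, where 26.8% of all genes lay below and 27.8% above. The third gene above, with Cox7a1 and Cox6b2, was Ndufa12, an accessory subunit of complex I, at 0.19 ± 0.13 (limma, adjusted p = 0.26). The number that fell was 4 without mutant replicate 1 and 5 without mutant replicate 2 at 13 weeks. Called in either direction were then 7.79% and 9.09% of the subunit genes, against 33.6% and 33.7% of all genes. Without control replicate 3 at 13 weeks the counts were 2 higher and 14 lower, or 20.8%, against 48% of all genes. The calls of Atp5g1, Ndufa8, Ndufs4, Ndufs8 and Ndufv1 were then lost, with adjusted p from 0.051 to 0.0892 in limma. With a term for sex 2 genes were higher and 7 lower, or 11.7%, against 46.5% of all genes. The calls of Atp5b, Ndufa4, Ndufa8, Ndufs4, Ndufs8 and Uqcr11 were lost in that fit. The one female control at 13 weeks was the array that stood apart, so a comparison within females rested on it.

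Cell type markers moved with the genotype at the same age, and their part in the subunit values was not tested. All 12 medium spiny neuron markers tested fell, by a median of 2.32 log2, and their mean level was 9.23 to 10.14 in mutants, against 11.82 to 12.18 in controls. General neuron markers were lower for 13 of 15 genes, with mean levels of 9.87 to 10.37 in mutants and 10.85 to 11.34 in controls. All 12 microglia markers rose, with mean levels of 11.47 to 11.90 in mutants, against 8.63 to 9.08 in controls. Astrocyte markers rose for 8 of 10 genes, with mean levels of 11.46 to 11.60 in mutants, against 9.60 to 9.65 in controls. At 9 weeks 3 of 12 medium spiny neuron markers were lower, with mean levels of 11.18 to 11.46 in mutants and 12.02 to 12.07 in controls, and no astrocyte or microglia marker was called in limma.

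**Figure D2:**
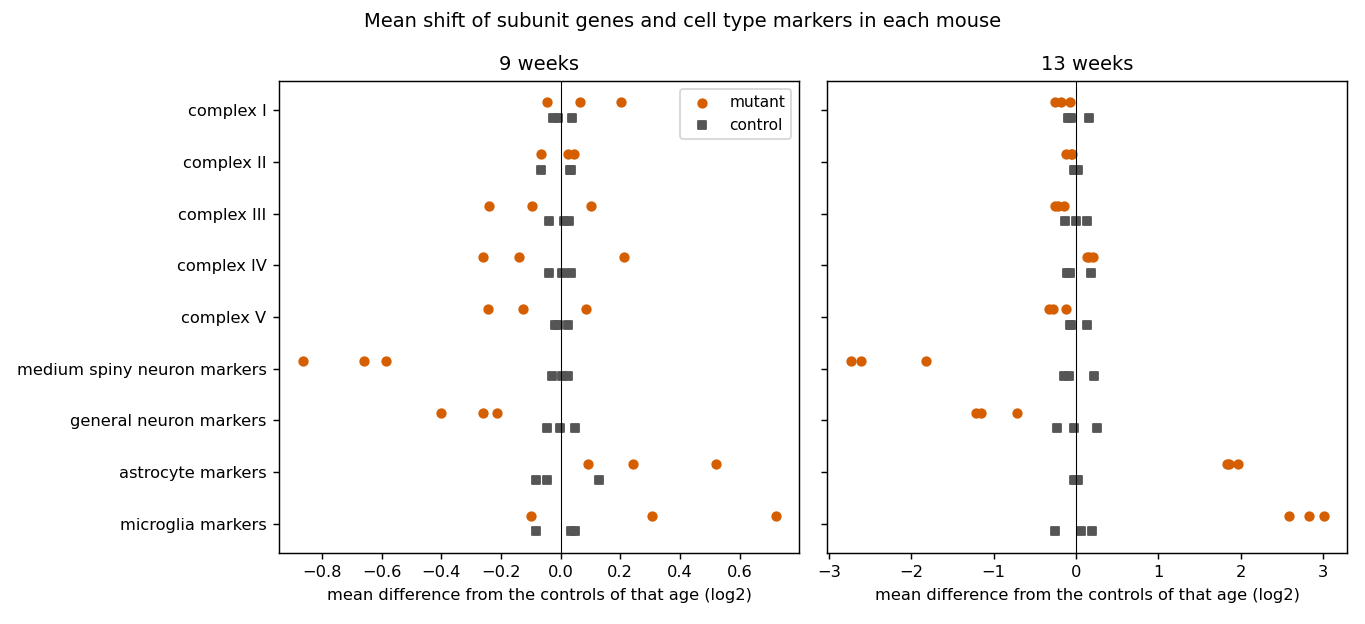
Mean difference of each mouse from the controls of its age on the log2 scale, averaged over the genes of each complex and over 4 lists of cell type markers, at 9 weeks (left) and 13 weeks (right); circles are mutants and squares controls, and the 2 panels have different axes. At 13 weeks the mutants had mean differences of -0.32 to -0.12 for ATP synthase genes and of -2.73 to -1.82 for medium spiny neuron markers.

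Many promoters of nuclear subunit genes are known to carry sites for NRF1, for GABP of the ETS family and for the CCAAT-binding factor NF-Y. The NRF1 motif and the letters CCGGAAG (ETS) and CCAAT were searched on both strands in the 250 bases before the start of transcription, from RefSeq on GRCm38.p6, which held 70 such stretches for 65 of the 80 genes. The ETS letters stood in 17.1% of these stretches, against 6.91% of all 32851 promoters, the NRF1 motif in 4.29% against 0.782%, and CCAAT in 38.6% against 33.8%. Among the 11 matched genes that fell at 13 weeks, 2 had the ETS letters, 4 had CCAAT and 0 had the NRF1 motif. The stretches of 3 genes are shown for contrast, namely the gene that rose most at 13 weeks, the complex I gene that fell with the smallest p, and the ATP synthase gene that fell most. Capitals mark the matches, and in the Atp5g1 stretch the CCAAT letters of the 2 strands overlap at one place.
Cox7a1, chr7:30183921-30184170, plus strand: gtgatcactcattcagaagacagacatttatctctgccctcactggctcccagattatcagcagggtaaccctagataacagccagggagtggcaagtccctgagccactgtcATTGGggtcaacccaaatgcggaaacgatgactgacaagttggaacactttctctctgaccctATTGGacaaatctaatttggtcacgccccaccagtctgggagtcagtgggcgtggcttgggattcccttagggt
Ndufs3, chr2:90904722-90904971, minus strand: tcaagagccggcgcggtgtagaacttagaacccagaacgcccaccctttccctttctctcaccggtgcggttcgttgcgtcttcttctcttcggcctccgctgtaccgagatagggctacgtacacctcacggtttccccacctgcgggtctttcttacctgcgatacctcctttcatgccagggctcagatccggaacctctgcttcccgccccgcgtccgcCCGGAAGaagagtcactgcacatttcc
Atp5g1, chr11:96075632-96075881, minus strand: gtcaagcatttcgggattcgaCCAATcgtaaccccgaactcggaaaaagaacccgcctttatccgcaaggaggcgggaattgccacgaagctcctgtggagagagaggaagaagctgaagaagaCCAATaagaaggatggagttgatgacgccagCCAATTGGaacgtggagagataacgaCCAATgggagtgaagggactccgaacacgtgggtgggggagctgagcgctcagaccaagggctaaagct
The Cox7a1 stretch held CCAAT, read on the other strand, at 2 places and neither of the other motifs. The Ndufs3 stretch held the ETS letters at 1 place. These are matches of letters and not measured binding.

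In complex I, 8 of 34 genes (23.5%) fell at 13 weeks, near the 21.9% of all genes tested, and 0 rose. The median was -0.13. The genes that fell included several of the core that carries electrons from NADH to ubiquinone. Ndufs3, a core subunit next to the ubiquinone site, read 11.00, 11.00 and 11.23 in mutants at 13 weeks, against 11.58, 11.64 and 11.98 in controls. All mutants lay below all controls, by -0.66 ± 0.16 log2 or 1.58-fold (limma, adjusted p = 0.0057, n = 3 each). Ndufs1, the largest iron-sulfur subunit, read 10.26, 10.25 and 10.61 in mutants, against 11.01, 10.97 and 10.80 in controls. This was -0.55 ± 0.14 log2 or 1.47-fold (limma, adjusted p = 0.00686), again with no overlap. Its groups did not overlap at 9 weeks either, when it read 10.90, 10.96 and 10.90 in mutants and 11.30, 11.24 and 11.29 in controls, a difference of -0.36 ± 0.14 that did not pass (limma, adjusted p = 0.17).

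Ndufb2, a small membrane arm subunit, read 11.27, 11.29 and 11.63 in mutants at 13 weeks, against 11.79, 12.16 and 12.42 in controls. It differed by -0.73 ± 0.19 log2 (limma, adjusted p = 0.00938), and its second probe set differed by -0.88 (limma, adjusted p = 0.00588). The calls of Ndufs3, Ndufs1 and Ndufb2 held whichever array was left out. Ndufv1, which holds the FMN and the NADH site, read 11.22, 11.16 and 11.30 in mutants, against 11.48, 11.67 and 12.33 in controls. The highest of these was the control that stood apart. Its difference was -0.60 ± 0.21 (limma, adjusted p = 0.0373), and -0.35 without that array (limma, adjusted p = 0.0892). Its other probe sets differed by -0.46, which passed (limma, adjusted p = 0.0384), and by -0.16, which did not.

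Ndufa4 is named as a complex I gene but its protein is a subunit of complex IV. It read 10.86, 10.93 and 11.30 in mutants at 13 weeks, against 11.74, 11.96 and 11.40 in controls, and 10.94, 11.00 and 11.27 in mutants at 9 weeks, against 11.61, 11.56 and 11.42 in controls. The groups did not overlap at either age, and the differences were -0.67 ± 0.18 at 13 weeks (limma, adjusted p = 0.0104) and -0.46 ± 0.18 at 9 weeks (limma, adjusted p = 0.17). Ndufs4, Ndufa8 and Ndufs8 fell by 0.38 to 0.57 log2 with adjusted p from 0.0311 to 0.0468 in limma. For Ndufs4 the other probe sets differed by -1.49 and -0.06, so the size depended on the probe set. The other 26 complex I genes ran from -0.36 for Ndufb5 to 0.33 for Ndufc2 and none passed in limma, where 2 of them had an unadjusted p under 0.05. Ndufa4l2 was not analysed here.

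Complex II, the link between the citric acid cycle and the chain, had a median of -0.04 at 13 weeks, with 0 of 4 genes called in limma and 0 at an unadjusted p under 0.05. Sdha, the catalytic flavoprotein, read 11.38, 11.55 and 11.52 in mutants at 13 weeks, against 11.73, 11.68 and 11.31 in controls. Its difference was -0.09 ± 0.14, with a 95% interval of -0.40 to 0.22. Sdhb, the iron-sulfur subunit, read 11.75, 11.71 and 11.98 in mutants, against 11.85, 11.99 and 12.52 in controls. It differed by -0.31 ± 0.18 (limma, adjusted p = 0.18), and the groups overlapped. The membrane anchors Sdhc and Sdhd differed by 0.09 and 0.01. The intervals of all 4 genes included 0 at both ages, which leaves room for differences of up to 0.70 log2 in size for Sdhb.

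In complex III, 1 of 9 genes fell at 13 weeks (11.1%, against 21.9% of all genes tested), and the median was -0.22. Uqcr11, a small accessory subunit, read 11.04, 11.17 and 11.29 in mutants, against 11.49, 12.10 and 11.92 in controls. It fell by 0.67 ± 0.21 log2 or 1.59-fold (limma, adjusted p = 0.0217), with no overlap. The electron-carrying subunits were not called. Cyc1, cytochrome c1, read 11.73, 12.05 and 12.10 in mutants and 11.66, 12.01 and 12.07 in controls at 13 weeks, a difference of 0.05 ± 0.17. Uqcrfs1, the Rieske iron-sulfur protein, read 11.29, 11.23 and 11.29 in mutants, against 11.35, 11.53 and 10.91 in controls, a difference of 0.01 ± 0.16. Neither differed beyond the spread between mice. Uqcrq and Uqcrc1 had all mutants below all controls, at -0.44 and -0.25, without passing the test. For Uqcr10 the direction depended on the probe set. The chosen one differed by -0.22 and did not pass. Its other probe sets differed by 0.93, which passed (limma, adjusted p = 0.00131), and by 0.36, which did not.

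**Figure D3:**
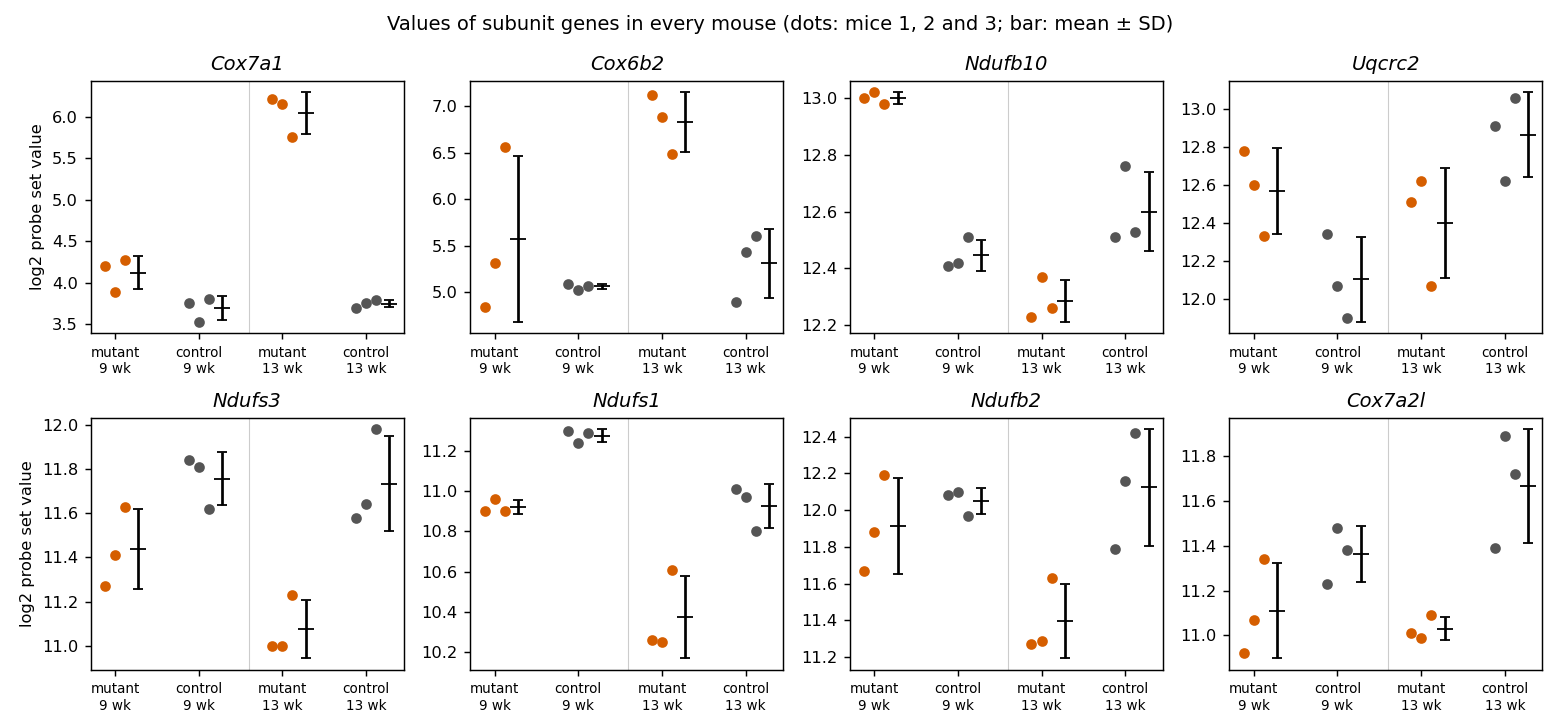
Log2 values of 8 subunit genes in every mouse; dots are mice 1, 2 and 3 of each group, mutants in orange and controls in grey, and the bars beside them are the mean ± SD (n = 3). The axes differ between genes and do not start at 0; Cox7a1 in mutants at 13 weeks stood at 5.76 to 6.22, above every other mouse.

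By the probe sets chosen, complex IV held the only subunit genes that rose at 13 weeks, 2 of 13 tested, and 1 that fell, Cox7a2l. These were 15.4% higher and 7.69% lower, against 23.4% and 21.9% of all genes tested. Cox7a1, the form of subunit VIIa known from heart and skeletal muscle, read 6.22, 6.16 and 5.76 in mutants at 13 weeks, against 3.70, 3.75 and 3.79 in controls. It rose by 2.30 ± 0.17 log2 or 4.92-fold (limma, adjusted p = 6.68e-07, n = 3 each), and the call held whichever array was left out. At 9 weeks it read 4.20, 3.89 and 4.27 in mutants, against 3.75, 3.53 and 3.80 in controls. All mutants lay above all controls there as well, by 0.43 ± 0.17, which did not pass (limma, adjusted p = 0.16). The control values lay near the 40th percentile of all probe sets, which was 3.51 to 3.81 by array, where GCRMA values are compressed, so the fold depends on the background correction.

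Cox6b2, the form of subunit VIb known from testis, read 7.12, 6.88 and 6.49 in mutants at 13 weeks, against 4.90, 5.43 and 5.61 in controls. It rose by 1.52 ± 0.36 log2 or 2.86-fold (limma, adjusted p = 0.00491). At 9 weeks it read 4.84, 5.32 and 6.56 in mutants, against 5.09, 5.03 and 5.07 in controls. The high mutant was replicate 3, and the groups overlapped. On that array several marker lists differed from the 9-week controls. The mean differences were 1.63 for thalamic and excitatory neurons, 0.72 for microglia, 0.52 for astrocytes and -0.86 for medium spiny neurons. Their part in this Cox6b2 value was not tested. The difference at 9 weeks was 0.51 ± 0.36 (limma, adjusted p = 0.46).

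The general forms of the same subunits were not called. Cox7a2, the common form of VIIa, read 13.35, 13.34 and 13.45 in mutants at 13 weeks, against 13.56, 13.67 and 13.47 in controls. Every mutant lay below every control, by -0.19 ± 0.13 (limma, adjusted p = 0.26). Cox6b1, the common form of VIb, read 13.63, 13.61 and 13.70 in mutants and 13.83, 13.85 and 13.27 in controls, a difference of 0.00 ± 0.17. Of the other restricted isoforms 1 could be tested. Cox6a2, the heart and muscle form of VIa, read 6.91, 6.95 and 6.73 in mutants at 13 weeks, against 6.24, 6.88 and 6.97 in controls. It differed by 0.17 ± 0.23, with a 95% interval of -0.34 to 0.68, and was not called. Its common form Cox6a1 read 13.94, 13.94 and 14.20 in mutants and 14.08, 14.18 and 14.08 in controls, a difference of -0.09 ± 0.14. Cox4i2, known from lung, and Cox8b and Cox8c, known from muscle and testis, lay below the 40th percentile on all 12 arrays and were not tested.

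Markers of cells other than neurons were read at the same age. Of 8 skeletal muscle markers, 7 lay below the filter, and the one tested, Acta1, averaged 5.54 in mutants and 7.40 in controls at 13 weeks. Mural cell markers, of pericytes and vascular smooth muscle, rose for 4 of 6 genes, with mean levels of 7.00 to 7.43 in mutants and 6.04 to 6.29 in controls. Endothelial markers rose for 3 of 5 genes, with mean levels of 5.90 to 6.41 in mutants and 4.50 to 5.24 in controls. Oligodendrocyte markers rose for 3 of 9 genes, with mean levels of 11.50 to 11.73 in mutants and 11.00 to 11.33 in controls. The part of mural and endothelial cells, oligodendrocytes, astrocytes and microglia in the Cox7a1 and Cox6b2 values was not tested.

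Cox7a2l, placed in complex IV by its symbol, read 11.01, 10.99 and 11.09 in mutants at 13 weeks, against 11.39, 11.89 and 11.72 in controls. It fell by 0.64 ± 0.17 log2 or 1.55-fold (limma, adjusted p = 0.00845). Its other probe sets differed by -0.20 and -0.36 and did not pass, and the mean of its probe sets was not called (limma, adjusted p = 0.137). Cox5a, a nuclear-encoded subunit of complex IV, read 13.01, 13.06 and 13.04 in mutants, against 13.13, 12.95 and 12.43 in controls. Its difference of 0.20 ± 0.17 followed 1 low control. Cox4i1, the common form of subunit IV, read 13.33, 13.36 and 13.61 in mutants and 13.72, 13.91 and 13.63 in controls. This was -0.32 ± 0.14 with no overlap, and it did not pass (limma, adjusted p = 0.087). Cox8a, the common form of subunit VIII, read 10.74, 10.81 and 11.37 in mutants, against 11.33, 11.87 and 11.80 in controls. It differed by -0.69 ± 0.27 (limma, adjusted p = 0.0562), and its groups overlapped.

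ATP synthase had the most even direction at 13 weeks, with 16 of 17 genes lower in mutants by mean, 0 higher and Atp5pb at 0.00, but the median was only -0.22. Of the 17, 3 passed as lower, or 17.6%, against 21.9% of all genes tested. These counts rest on 1 probe set per gene. Another probe set was lower and passed for Atp5pb, by 0.39, and for Atp5d, by 0.53 (limma, adjusted p = 0.0456 and 0.0228). The same held for 1 probe set of Atp5k, whereas the other ones of Atp5h, Atp5j2 and Atp5o did not pass. Atp5a1, the alpha subunit of the catalytic head, read 12.29, 12.36 and 12.46 in mutants, against 12.73, 12.78 and 12.85 in controls. It fell by 0.42 ± 0.13 log2 or 1.33-fold (limma, adjusted p = 0.0183), and the groups did not overlap, nor did they at 9 weeks, when the difference was -0.20 ± 0.13. Its other probe sets differed by -0.19, which did not pass, and by -0.97 (limma, adjusted p = 0.0395).

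Atp5b, the catalytic beta subunit, read 12.90, 12.91 and 13.23 in mutants at 13 weeks, against 13.48, 13.40 and 13.28 in controls. The difference was -0.37 ± 0.14 (limma, adjusted p = 0.045). It was called in 3 of the 12 fits that left out 1 array. The subunit c ring of the proton channel is made from 3 genes for one mature protein. Atp5g1 read 10.68, 10.93 and 11.21 in mutants, against 11.25, 11.55 and 12.07 in controls, and fell by 0.68 ± 0.21 log2 or 1.61-fold (limma, adjusted p = 0.0219). Atp5g2 read 11.13, 11.24 and 11.40 in mutants, against 11.38, 11.87 and 12.30 in controls, a difference of -0.59 ± 0.24 (limma, adjusted p = 0.0626). Atp5g3 read 12.87, 12.91 and 13.16 in mutants and 13.23, 13.22 and 12.81 in controls, a difference of -0.11 ± 0.17 (limma, adjusted p = 0.637). Only Atp5g1 of the 3 had groups that did not overlap, and whether the 3 differ from each other was not tested.

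The difference of the genotype effects, 13 weeks minus 9 weeks, was tested as an interaction and shares its arrays with the comparisons above. It was called for 3 of 77 subunit genes, 1 higher and 2 lower, against 18.4% of all genes tested (12.1% higher and 6.38% lower). Cox7a1 had an interaction of 1.87 ± 0.23 (limma, adjusted p = 0.000159, n = 3 each), from a genotype difference of 2.30 at 13 weeks and 0.43 at 9 weeks. Ndufb10 had -0.87 ± 0.18 (limma, adjusted p = 0.00613), being lower in mutants at 13 weeks and higher at 9 weeks. After median centring the interaction was called for 1 higher and 5 lower, or 7.79%, against 19.9% of all genes. The calls of Cox7a1 and Ndufb10 held whichever array was left out.

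Uqcrc2, a core protein of complex III, had an interaction of -0.93 ± 0.28 (limma, adjusted p = 0.0393). It read 12.51, 12.62 and 12.07 in mutants at 13 weeks, against 12.91, 12.62 and 13.06 in controls. At 9 weeks it read 12.78, 12.60 and 12.33 in mutants, against 12.34, 12.07 and 11.90 in controls. The groups touched or overlapped at both ages, the second probe set gave -0.44 (limma, adjusted p = 0.137), and the call was lost in 9 of the 12 fits that left out 1 array.

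**Figure D4:**
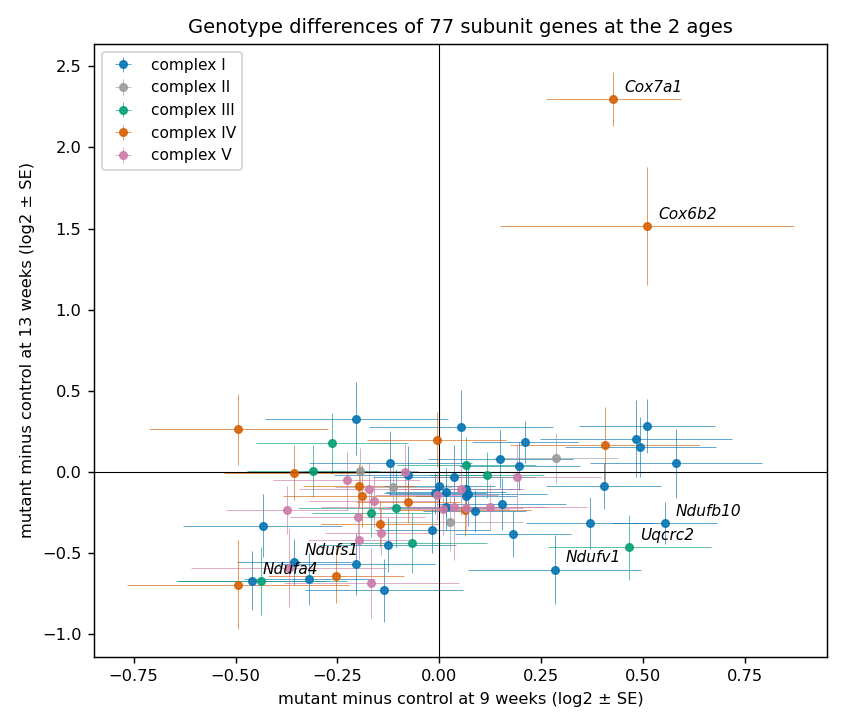
Mutant minus control difference of each of the 77 subunit genes at 9 weeks (horizontal) and at 13 weeks (vertical), on the log2 scale with SE bars, coloured by complex. Most points lie within 0.5 log2 of 0 at both ages; Cox7a1 and Cox6b2 lie highest, and Ndufb10 and Uqcrc2 lie right of 0 and below it.

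With age, the mutants changed in more subunit genes than passed in controls; the difference itself is the interaction given above. From 13-week mutants minus 9-week mutants, 2 genes were higher and 7 lower of 77, or 11.7%, against 32.7% of all genes tested (16.1% higher and 16.6% lower). The median was -0.23, against -0.10 for all genes, and 33 of 34 complex I genes were lower by mean. Ndufb10 fell by 0.71 ± 0.13 log2 (limma, adjusted p = 0.00118, n = 3 each) and Ndufs1 by 0.55 ± 0.14 (limma, adjusted p = 0.0103). Ndufv3, Ndufs7, Ndufb9, Ndufb5 and Atp5k fell by 0.43 to 0.67 log2. Atp5k, a small membrane subunit of ATP synthase, read 11.73, 11.67 and 11.95 at 13 weeks and 12.04, 12.21 and 12.54 at 9 weeks in mutants, with no overlap (limma, adjusted p = 0.0385). Ndufv3, an accessory subunit, read 11.42, 11.42 and 11.74 at 13 weeks and 11.98, 12.12 and 12.50 at 9 weeks in mutants (limma, adjusted p = 0.0225). It stood nearly as low in the controls at 13 weeks, at 11.55, 11.92 and 11.20, against 12.17, 12.18 and 12.14 at 9 weeks, a difference of -0.61 ± 0.20 (limma, adjusted p = 0.191).

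Cox7a1 rose by 1.93 ± 0.17 log2 (limma, adjusted p = 3.55e-06) and Cox6b2 by 1.26 ± 0.36 (limma, adjusted p = 0.0191) with age in mutants. The number that fell with age in mutants was 1 without mutant replicate 1 or 2 at 13 weeks. It was 3 without mutant replicate 2 and 2 without mutant replicate 3 at 9 weeks. In these fits 2.6%, 2.6%, 5.19% and 5.19% of the subunit genes were called in either direction, against 21%, 21.1%, 24.4% and 30.2% of all genes. The number that fell was 12 without mutant replicate 3 and 20 without control replicate 3 at 13 weeks, and 2 with a term for sex. Called in either direction were then 18.2%, 28.6% and 5.19% of the subunit genes, against 30.2%, 46.6% and 30.4% of all genes. After each array was centred on its median, which moved the median of all genes to -0.26, 2 genes were higher and 25 lower. That was 35.1% of the subunit genes, against 39.3% of all genes. In controls 0 of 77 genes were called for age in limma, against 0.145% of all genes tested (0.0848% higher and 0.0606% lower). At an unadjusted p under 0.05 in controls there were 12 of the 77 subunit genes and 1431 of all 8256 genes.

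Genes that build or serve the complexes were called in both directions at 13 weeks. Of 35 assembly factors tested among 48 listed, 4 were higher and 5 lower in mutants, or 25.7%, against 45.3% of all genes tested. Bcs1l, which inserts the Rieske protein into complex III, read 6.96, 7.11 and 7.10 in mutants, against 7.80, 8.02 and 8.08 in controls. It fell by 0.91 ± 0.16 log2 (limma, adjusted p = 0.000879), while its client Uqcrfs1 differed by 0.01. Ttc19, another complex III factor, fell by 0.95 log2, Sdhaf4, a complex II factor, by 0.86, and Cox18, an inserter of complex IV, rose by 0.73. Surf1, a complex IV factor, was higher at 13 weeks by 0.47 and at 9 weeks by 0.83 (limma, adjusted p = 0.0167), where Cox20 was the other one called.

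Of 18 regulators of mitochondrial biogenesis and mitochondrial DNA tested among 22 listed, 4 were higher and 4 lower at 13 weeks, or 44.4%, close to the share of all genes. Ppargc1b, the coactivator PGC-1β, read 4.70, 5.37 and 6.25 in mutants, against 7.77, 7.83 and 7.24 in controls. It fell by 2.17 ± 0.32 log2 (limma, adjusted p = 0.000217), and Esrra, the nuclear receptor it acts with, fell by 1.49 ± 0.28 (limma, adjusted p = 0.00116). Hif1a, the hypoxia-inducible factor, rose by 1.85 and Gabpa, the DNA-binding subunit of GABP, by 1.88. In both of these, control replicate 3 was the lowest control, at 7.39 for Hif1a and 4.73 for Gabpa.

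Of 19 carriers and electron transfer genes tested among 26 listed, 2 were higher and 5 lower at 13 weeks, or 36.8%, against 45.3% of all genes. Coq8a, which serves ubiquinone synthesis, read 6.04, 6.20 and 7.15 in mutants, against 8.39, 8.45 and 8.34 in controls, a fall of 1.93 log2 (limma, adjusted p = 9.88e-05). Ckmt1, mitochondrial creatine kinase, fell by 1.78, and Slc25a14, a mitochondrial carrier, by 1.25. Etfa, which brings electrons from fatty acid oxidation into the chain, rose by 0.96. Cycs, cytochrome c, differed by 0.30 and did not pass (limma, adjusted p = 0.279).

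**Figure D5:**
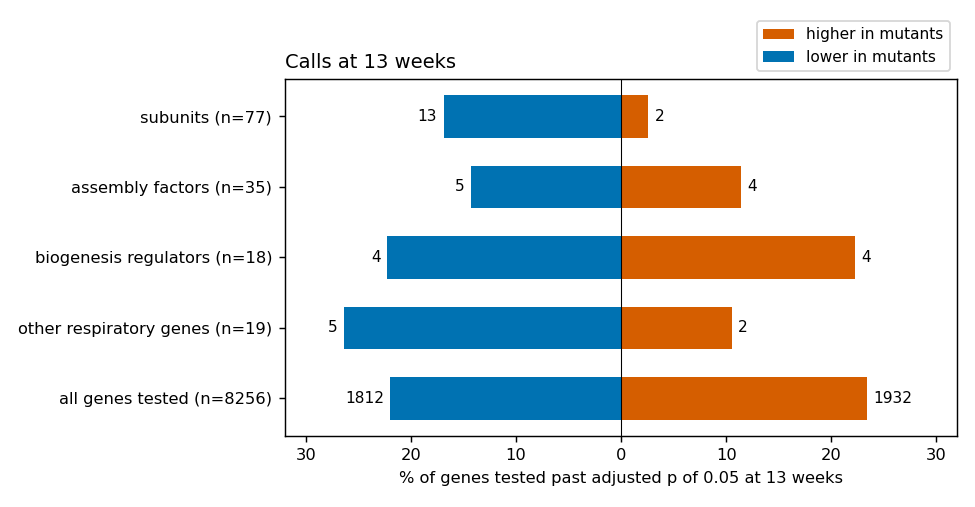
Share of genes tested that were called at 13 weeks, higher in mutants to the right and lower to the left, for the subunits, 3 lists of genes that build or serve the complexes, and all genes tested; numbers at the bars are gene counts. The subunits have 2 of 77 to the right and 13 to the left, and all genes tested have 1932 to the right and 1812 to the left.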

How the data were processed

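Total RNA of the striatum was hybridised to Affymetrix arrays, per the labels, and processed with GCRMA, per the submitters' processing notes. The version is not given in the sources used here. The deposited values are log2 signals, from 1.09 to 15.48, used without further normalization. GEO's platform annotation named exactly 1 gene for 20380 of 22690 probe sets, which were used, more than 1 gene for 691 and no gene for 1555, and 64 were array controls. In this mapping 44 of the 80 subunit genes had more than 1 probe set.

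Genes above their array's 40th percentile in at least 3 arrays were kept, 8256 of 12393. A cell-means model of the 4 groups, with 8 residual degrees of freedom, was fitted to all 12 arrays by limma 3.58.1 under R 4.3.3, using lmFit and eBayes. Two-sided p-values were adjusted within each of 5 comparisons (Benjamini-Hochberg). Replicates are labelled as biological. The p-values weigh each difference against the spread between mice, which was estimated over all 4 groups and moderated across genes. The procedure was tested on simulated data.

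Genes with full values were chosen subunits (Ndufs1, Ndufv1, Sdha, Sdhb, Uqcrfs1, Cyc1, Cox5a and Atp5b) and the isoform sets. They also included the 3 called genes of smallest p in each complex and comparison, and every gene called at 9 weeks or for the interaction. In the other lists they were genes of smallest p. The subunit genes and all lists were chosen with earlier results of these data known. The fit was repeated with array weights, after median centring or quantile normalization, with other filters, with another probe set or the average of probe sets, with a trended and robust prior, on the compared groups alone, within 1 sex or with a term for sex, with a replicate block, and without each array in turn.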

Additional observations from a re-analysis of the deposited data

Results flagged for a closer look

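The genotype difference itself differed between the ages for 3 of 77 subunit genes, by the interaction in limma. Cox7a1 had 1.87 (adjusted p = 0.000159), with all 3 mutants above all 3 controls at both ages. Ndufb10 had -0.87 (adjusted p = 0.00613), with the 3 mutants below the controls at 13 weeks and above them at 9 weeks. Uqcrc2 had -0.93 (adjusted p = 0.0393), with overlapping or touching groups at both ages. All 3 mutants at 13 weeks were female, so sex moved with this difference. With a term for sex all 3 genes passed. That term takes the effect of sex to be the same in every group, and the only female control at 13 weeks was the array that stood apart. Sex and genotype therefore cannot be told apart at this age.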

How the results depend on the processing

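No called subunit gene changed direction under the alternatives run, and of the 15 genes called at 13 weeks, 6 were called whichever array was left out (Cox6b2, Cox7a1, Cox7a2l, Ndufb2, Ndufs1 and Ndufs3). Counts moved more, and the cause was not tested unless stated. Array weights gave 8 higher and 13 lower at 9 weeks, 33 lower at 13 weeks, an interaction for 2 higher and 12 lower, 39 lower with age in mutants, and 1 higher and 1 lower with age in controls. The share of all genes called also grew with these weights. It was 33.4% at 9 weeks, 58.9% at 13 weeks, 40.5% for the interaction and 61.6% with age in mutants. Of the subunit genes, 27.3%, 45.5%, 18.2% and 54.5% were called. Median centring, which moves the median of all genes to -0.16 at 13 weeks, gave 22 lower there, 5 lower for the interaction and 25 lower with age in mutants. Called in either direction were then 31.2%, 7.79% and 35.1% of the subunit genes, against 47.8%, 19.9% and 39.3% of all genes. The medians at 13 weeks after this centring were -0.31 for all subunits, -0.30, -0.21, -0.39 and -0.25 for complexes I to IV and -0.38 for ATP synthase. A filter at the 60th percentile removed Cox7a1 and Cox6b2 by construction, leaving 0 higher at 13 weeks, for the interaction and with age in mutants. A fit to the compared groups gave 4 higher at 9 weeks and 5 lower at 13 weeks. Called in either direction were then 5.19% and 9.09% of the subunit genes, against 12.7% and 34.3% of all genes. A term for sex gave 7 lower at 13 weeks and 2 lower with age in mutants. In either direction 11.7% and 5.19% of the subunit genes were called, against 46.5% and 30.4% of all genes. Within males 0 were higher at 9 weeks, where 4.4% of all genes were called. Within females at 13 weeks, against 1 control, the median difference was -0.09 for the subunit genes and 0.05 for all genes. A trended and robust prior gave 5 lower for the interaction and 15 with age in mutants. In either direction 7.79% and 22.1% of the subunit genes were called, against 18.7% and 32.7% of all genes. With age in mutants, no filter gave 14 lower and the mean of probe sets 16. Called in either direction were then 20% and 23.4% of the subunit genes, against 22.6% and 35.5% of all genes. The share of subunit genes called was in none of these fits larger than the share of all genes.

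Medians of small complexes moved too. Complex II had 0.0174 at 9 weeks after quantile normalization, and at 13 weeks -0.13 with array weights, 0.0483 with a term for sex and 0.07 within females. Complex III had 0.029 at 9 weeks and -0.02 at 13 weeks by the mean of probe sets, and 0.11 within males at 9 weeks. ATP synthase had 0.0267 at 9 weeks by the mean of probe sets and -0.36 at 13 weeks with array weights. Leaving out 1 array gave 0 to 5 higher at 9 weeks and 4 to 16 lower at 13 weeks. It gave 1 to 2 higher and 1 to 5 lower for the interaction, and 1 to 2 higher and 1 to 20 lower with age in mutants. The share of all genes called then ran from 0.752% to 16.6% at 9 weeks and from 33.6% to 48% at 13 weeks. For the interaction it ran from 10% to 23.7%, and with age in mutants from 21% to 46.6%. The median then ran from -0.0808 to 0.0142 for complex II at 13 weeks and from -0.29 to 0.0683 for complex III at 9 weeks.

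Whether the replicate numbers pair the mice cannot be settled with 3 mice per group. Same-numbered mutants and controls correlated at 0.001, 0.073 and -0.073 at 9 weeks and 0.095, 0.118 and 0.184 at 13 weeks. Differently numbered ones ran from -0.126 to 0.117 at 9 weeks and from -0.181 to 0.172 at 13 weeks. With the number as a replicate block the counts were 1 higher and 0 lower at 9 weeks, and 2 higher and 14 lower at 13 weeks. They were 1 higher and 4 lower for the interaction, and 2 higher and 10 lower with age in mutants. Called in either direction were then 1.3%, 20.8%, 6.49% and 15.6% of the subunit genes, against 5.27%, 46.5%, 19.5% and 33.9% of all genes. Signals near background limit Cox7a1, Cox7c, Cox4i2, Cox8b and Cox8c.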

Other observations

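The signal of Cox7c was above the 40th percentile on 2 of 3 arrays of controls at 13 weeks and on all arrays of the other groups. Cox7c read 4.34, 4.21 and 4.33 in mutants at 13 weeks, against 4.07, 4.45 and 3.57 in controls, and 4.33, 4.36 and 4.45 in mutants at 9 weeks, against 5.22, 4.59 and 4.81 in controls. The subunit genes lay on 19 chromosomes, with at most 9 on one.

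Values of Atp5k at 13 weeks depended on the probe set. Of its 3 probe sets 1 was lower in mutants by 0.55 (limma, adjusted p = 0.0165), and the others differed by -0.23 and -0.22 without passing.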
